A study of Mus musculus with 34 samples.

Results

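The genes described here belong to the tumour necrosis factor (TNF) ligand superfamily and the TNF receptor superfamily in mouse. They were taken by symbol: Tnf and every gene named Tnfsf or Tnfrsf with a number, to which the authors' annotation assigns at least 1 region of acetylated histone H3 lysine 27 (H3K27ac) within 100 kb of the gene's annotated start. The rule found 29 genes, 12 ligands and 17 receptors, among 18476 genes with a region in either H3K27ac table. Both tables held 27 of them. The table of monocytes and liver macrophages gave 28 genes with 176 regions of 84647, and the table of cultured macrophages 28 genes with 191 regions of 95038. Tnfrsf25 had regions in the first table only and Tnfrsf26 in the second only. The rule reads no level or difference, but the superfamily was chosen with earlier results of these data known.

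TNF superfamily ligands are mostly membrane-anchored trimers that can be shed, and they signal by clustering receptors on the target cell. Receptors with a cytoplasmic death domain, such as TNFR1 (encoded by Tnfrsf1a), can signal towards cell death as well as NF-kB, while others, such as TNFR2 (Tnfrsf1b) and RANK (Tnfrsf11a), recruit TRAF adaptors. Kupffer cells, the resident macrophages of the liver, are a classical source of TNF. H3K27ac marks active promoters and enhancers, so it is measured here as chromatin at these genes and not as RNA or protein.

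H3K27ac was measured by chromatin immunoprecipitation sequencing (ChIP-seq) in 5 groups of 2 libraries each. Blood Ly6C-high monocytes came from untreated C57BL/6J mice. Repopulating liver macrophages (RLM) came from Clec4f-cre/Rosa26iDTR mice 24 h after diphtheria toxin; in this model the promoter of the Kupffer cell gene Clec4f drives Cre, so that the toxin receptor is placed in Kupffer cells. Kupffer cells (KC) were untreated and are labelled C57BL/6J, although the series' design text gives them as Clec4f-Cre/DTR. RLM therefore differ from monocytes in tissue, genotype and toxin together, which cannot be told apart. RLM and KC likewise differ in toxin and, by the labels, in genotype, which cannot be told apart from a difference between the cells. A step from RLM to KC below compares separate groups and does not follow the same cells. Bone marrow-derived macrophages (BMDM) of C57BL/6J mice were grown for 4 days, either untreated or exposed to DLL4, a ligand of Notch receptors, for 24 h. The transcription factors LXR (untreated KC of Clec4f-cre mice; C57BL/6J BMDM of 7 days given the LXR agonist GW3965 for 18 h), SMAD4 and RBPJ (KC nuclei of untreated Clec4f-cre mice; untreated 4-day C57BL/6J BMDM) were mapped in 2 libraries per factor and cell. No label gives an age or states that paired libraries were separate animals or cultures. The p-values below therefore rest on a spread between libraries that could be purely technical.

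Of the 34 samples, 22 had values, and the 12 inputs entered only through the fold over input in the peak lists. Libraries of monocytes, RLM and KC held 7.37 to 19.5 M tags in regions, those of BMDM 20.18 to 27.24 M, and the libraries behind the peak lists 11.1 to 56.3 M. Of 6 Kupffer cell markers, all 6 were higher in KC than in RLM and in monocytes, and 4 were higher in RLM than in monocytes. The Notch target Hes1 rose from 7.71 and 9.17 CPM (tags per M tags in tested genes, after scaling) in untreated BMDM to 71.0 and 77.8 CPM with DLL4. Markers of liver endothelium, 5 of 5 tested, summed to 107 and 99.6 CPM in RLM and to 186 and 193 CPM in KC. Only Stab2 of them rose (2.47), while Kdr fell (-1.19) and Pecam1 (0.65), Clec4g (-0.79) and Lyve1 (-1.18) were not called. Hepatocyte markers, of which 3 of 5 were tested and Cyp2e1 and Serpina1a were not, summed to 19.1 and 20.3 CPM in RLM and 48.1 and 50.7 CPM in KC; Ttr carried this rise (2.49), with Alb at -0.08 and Apoa1 at -0.17. Neutrophil markers, 3 of 4 tested, summed to 18.8 and 15.6 CPM in RLM and 9.34 and 6.04 CPM in KC. Dendritic cell markers, 4 of 4 tested, summed to 105 and 106 CPM in monocytes, 48.0 and 36.7 CPM in RLM and 88.9 and 100.5 CPM in KC; Flt3 (-1.79) and Xcr1 (-1.35) fell from monocytes to RLM, and Xcr1 (2.36) and Zbtb46 (1.46) rose from RLM to KC while Flt3 fell again (-1.45). Monocyte markers, 6 of 6 tested, summed to 468 and 454 CPM in monocytes, 468 and 454 CPM in RLM and 224 and 237 CPM in KC, and macrophage markers, 4 of 4 tested, to 212 and 200.4 CPM, 402 and 378 CPM, and 1125 and 1293 CPM. Of the T and NK cell and stellate cell lists, 2 of 5 and 1 of 4 genes passed the filter on low counts. The part of these cells in the differences below was not tested, and fewer cells of a type cannot be told apart from less signal per cell.

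Promoters of 3 genes introduce the loci because they carry peaks of the mapped factors: that of Tnf, the founding ligand; that of its receptor gene Tnfrsf1a, which alone had a peak in both libraries of all 6 factor and cell groups; and that of Tnfrsf14, the gene of the receptor HVEM, whose acetylation was higher in KC. RefSeq (GRCm38.p6, the assembly that mm10 names) gave a window of 300 bases, 250 before to 50 after the start, for 23 of the 29 genes. Each is printed 5′ to 3′ on the gene's strand, with capitals marking TGGGAA (an RBPJ core) or CAGAC (the core of a SMAD-binding element) on either strand.
Tnf, chr17:35201958-35202257, minus strand: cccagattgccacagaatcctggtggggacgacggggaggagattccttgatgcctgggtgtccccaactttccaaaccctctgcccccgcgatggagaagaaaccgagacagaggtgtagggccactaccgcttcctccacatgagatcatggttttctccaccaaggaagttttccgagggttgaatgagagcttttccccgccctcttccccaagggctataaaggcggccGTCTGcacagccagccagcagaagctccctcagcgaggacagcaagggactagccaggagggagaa
Tnfrsf1a, chr6:125349473-125349772, plus strand: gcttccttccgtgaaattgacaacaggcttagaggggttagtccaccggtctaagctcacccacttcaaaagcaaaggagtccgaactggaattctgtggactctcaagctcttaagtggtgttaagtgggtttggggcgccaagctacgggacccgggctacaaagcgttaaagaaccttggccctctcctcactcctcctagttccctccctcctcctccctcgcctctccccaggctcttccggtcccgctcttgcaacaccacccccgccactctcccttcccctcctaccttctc
Tnfrsf14, chr4:154928028-154928327, minus strand: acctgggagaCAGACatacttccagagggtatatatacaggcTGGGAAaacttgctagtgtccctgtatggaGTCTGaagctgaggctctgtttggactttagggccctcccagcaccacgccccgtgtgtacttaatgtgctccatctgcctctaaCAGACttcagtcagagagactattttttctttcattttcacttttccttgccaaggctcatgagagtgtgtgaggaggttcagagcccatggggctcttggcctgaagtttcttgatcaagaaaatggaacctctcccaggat

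The Tnf window held 1 CAGAC match and no TGGGAA, the Tnfrsf14 window 3 CAGAC matches and 1 TGGGAA, and the Tnfrsf1a window neither. Among the 26 windows of the 23 genes, TGGGAA on either strand occurred in 3 (11.5%: Tnfrsf14, Tnfrsf23 and Tnfsf15), against 25.6% of all 32851 windows. CAGAC occurred in 16 (61.5%), against 49.6% of all. GTCTAGAC (a SMAD palindrome) occurred in none of the 26 and in 0.213% of all windows. Both strands were read, and no pattern contains another. A match is a description of these letters only.

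Levels are CPM of tags summed over a gene's regions, relative to the scaled total of all tested genes, and differences are log2 with the standard error (SE) of an edgeR quasi-likelihood fit over every gene of the table. A gene was called where the Benjamini-Hochberg adjusted p was under 0.05 and the change at least 2-fold, and only called genes or regions are written as risen or fallen. The 3 comparisons among monocytes, RLM and KC share libraries, so their values stand side by side and are not independent of each other. Of the 29 genes, 27 passed the filter on low counts in the first table. Tnfrsf25 did not, with 2 to 9 tags per library, and is not described further.

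Between monocytes and RLM, 1 of 27 superfamily genes rose and 1 fell, against 6.20% higher and 5.80% lower among all 16749 genes tested. The share of calls was thus no larger than the background of 12.0%. Tnfsf18, which encodes the ligand GITRL, rose by 1.46 (SE 0.18, adjusted p 1.19e-07), and Tnfrsf23, a decoy receptor gene, fell by 1.45 (SE 0.245, adjusted p 2.08e-05). Another 7 genes passed the adjusted p without reaching 2-fold, among them Tnfrsf1b at -0.91, Tnfrsf1a at -0.78, Tnfsf14 at -0.95 and Tnfrsf12a at 0.90. The share of all genes that did so was not counted. The median over the 27 genes was -0.14, against 0.07 for all genes. Without the second RLM library 5 genes were called, Tnfrsf1b among them at -1.02, and with regions within 3 kb of the start alone, Tnfsf18 stood at 0.66 and was not called.

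Between RLM and KC, 8 of 27 genes rose and 3 fell, against 14.6% higher and 12.8% lower among all genes. Of 15 receptors tested 6 rose and 1 fell, and of 12 ligands 2 rose and 2 fell. The median was 0.24 over the 27 genes and -0.07 over all genes. Scaling by total tags in place of the trimmed mean of M-values (TMM) lowered the median of all genes by 0.33 and moved the share of all calls that were higher from 53.3% to 30.6%, so every KC difference is relative to that choice. Between monocytes and KC, 7 rose and 2 fell, against 18.4% higher and 14.4% lower among all genes, and total scaling moved the share of higher calls from 56.1% to 38.8%.

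**Figure D1:**
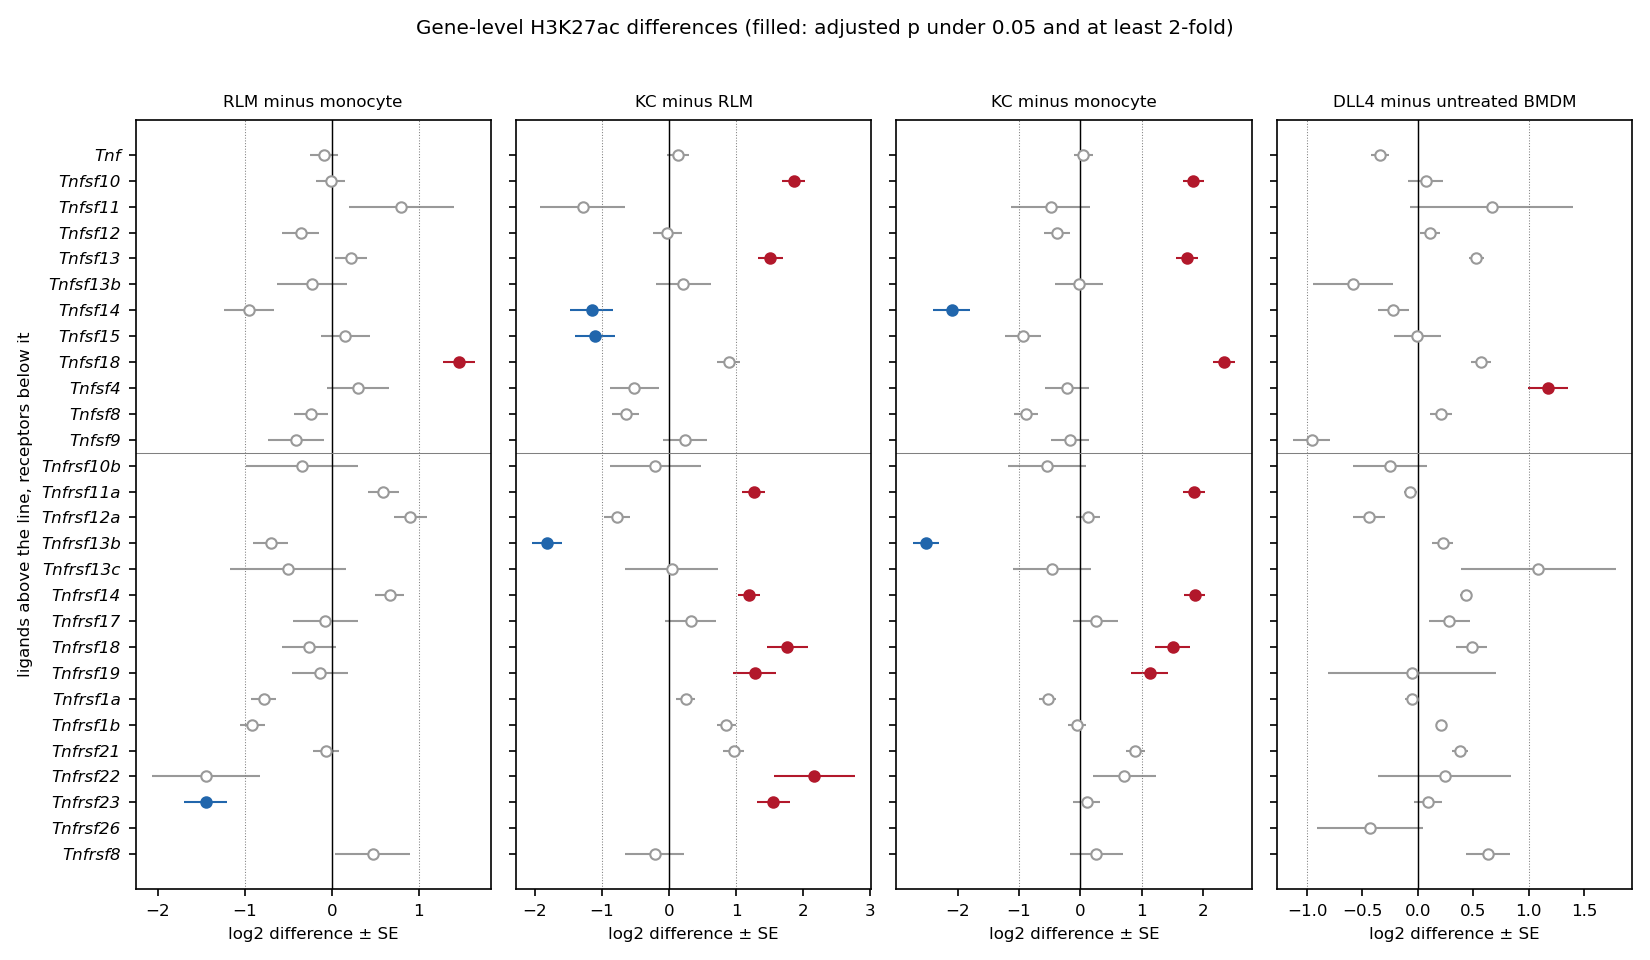
Log2 difference ± SE of H3K27ac for each tested superfamily gene in the 4 comparisons, ligands above the line and receptors below. Filled points passed an adjusted p of 0.05 and a 2-fold change (dotted lines at 1 and -1); 2, 11, 9 and 1 genes are filled from left to right.

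Among the ligands, Tnfsf10, which encodes the death receptor ligand TRAIL, had 51.4 and 61.9 CPM in monocytes, 58.6 and 53.9 in RLM and 189 and 218 in KC. Monocytes and RLM overlapped, and both KC libraries lay well above them. The gene rose by 1.86 from RLM to KC (SE 0.168, adjusted p 6.23e-11). Of its 14 regions, 11 rose in KC, and 13 of the 14 lay in no protein-coding gene. The region with the smallest adjusted p, chr3:27269260-27271260, is intergenic and 46.8 kb upstream of the start. Its region level (CPM over all tested regions, another scale than the gene level) was 4.30 and 2.73 in monocytes, 1.97 and 2.54 in RLM and 19.0 and 20.5 in KC, a rise of 3.11 from RLM (SE 0.348, adjusted p 9.19e-12). All regions that rose other than the promoter were intergenic and upstream. Against monocytes 9 regions were higher in KC. An overlapping pair 25.5 and 25.9 kb upstream fell from monocytes to RLM (-2.39 and -2.11) and was not called between monocytes and KC (0.95 and 0.97), nor was the promoter region (0.82).

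Tnfsf13 encodes APRIL, a ligand that supports plasma cells. Its level was 31.6 and 33.0 CPM in monocytes, 33.7 and 41.5 in RLM and 97.9 and 117 in KC, with no overlap between KC and the rest. It rose by 1.51 from RLM to KC (SE 0.181, adjusted p 2.07e-08). Both of its regions rose; they overlap the neighbouring ligand gene Tnfsf12, and chr11:69684416-69686416, 138 bp from the start, went from 15.6 and 20.2 in RLM to 44.7 and 57.0 region CPM in KC. The 2 regions assigned to Tnfsf12 itself, which encodes TWEAK, were not called, and that gene's difference was -0.02.

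Tnfsf18 was higher at each step in order of level, and only the step from monocytes to RLM was called. It had 19.7 and 22.3 CPM in monocytes, 58.9 and 57.0 in RLM and 102 and 112 in KC. KC exceeded monocytes by 2.35 (SE 0.18, adjusted p 5.45e-13), while KC minus RLM, 0.89 (adjusted p 6.21e-05), stayed under 2-fold. The intronic region chr1:161499926-161501926, 6.27 kb inside the gene, had 0.992 and 3.06 region CPM in monocytes, 11.7 and 10.8 in RLM and 24.6 and 28.0 in KC, and it rose at each step, by 2.46 and 1.23 (adjusted p 2.79e-08 and 2.46e-04).

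Ligand genes that fell in KC were Tnfsf14 and Tnfsf15. Tnfsf14, which encodes LIGHT, the ligand of HVEM, had 22.2 and 14.0 CPM in monocytes, 9.06 and 9.66 in RLM and 5.38 and 3.38 in KC. Its monocyte libraries differed from each other more than the RLM libraries did, and the 3 groups did not overlap. It fell by 1.15 from RLM to KC (SE 0.321, adjusted p 0.00346) and was 2.10 lower than in monocytes on the log2 scale (-2.10, SE 0.307, adjusted p 5.70e-07). Without the second KC library the RLM to KC value was -0.80 and was not called. Its intergenic region chr17:57197485-57199485, 4.30 kb upstream, had 10.6 and 6.11 region CPM in monocytes, 4.86 and 2.74 in RLM and 1.79 and 0.528 in KC.

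Tnfsf15, which encodes TL1A, had 11.5 CPM in each RLM library and 5.94 and 4.94 in KC, a fall of 1.10 (SE 0.298, adjusted p 0.00278). That call ended without the second KC library (-0.95) and with regions within 20 kb alone (-0.77). Tnfsf8, which encodes CD30 ligand, fell short of 2-fold as a gene (-0.64), although 6 of its 12 regions fell in KC. Tnfsf11 (RANKL), Tnfsf13b (BAFF), Tnfsf4 (OX40L) and Tnfsf9 (4-1BBL) were not called in any comparison of the first table, with mean levels of 0.873 to 8.15 CPM.

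**Figure D2:**
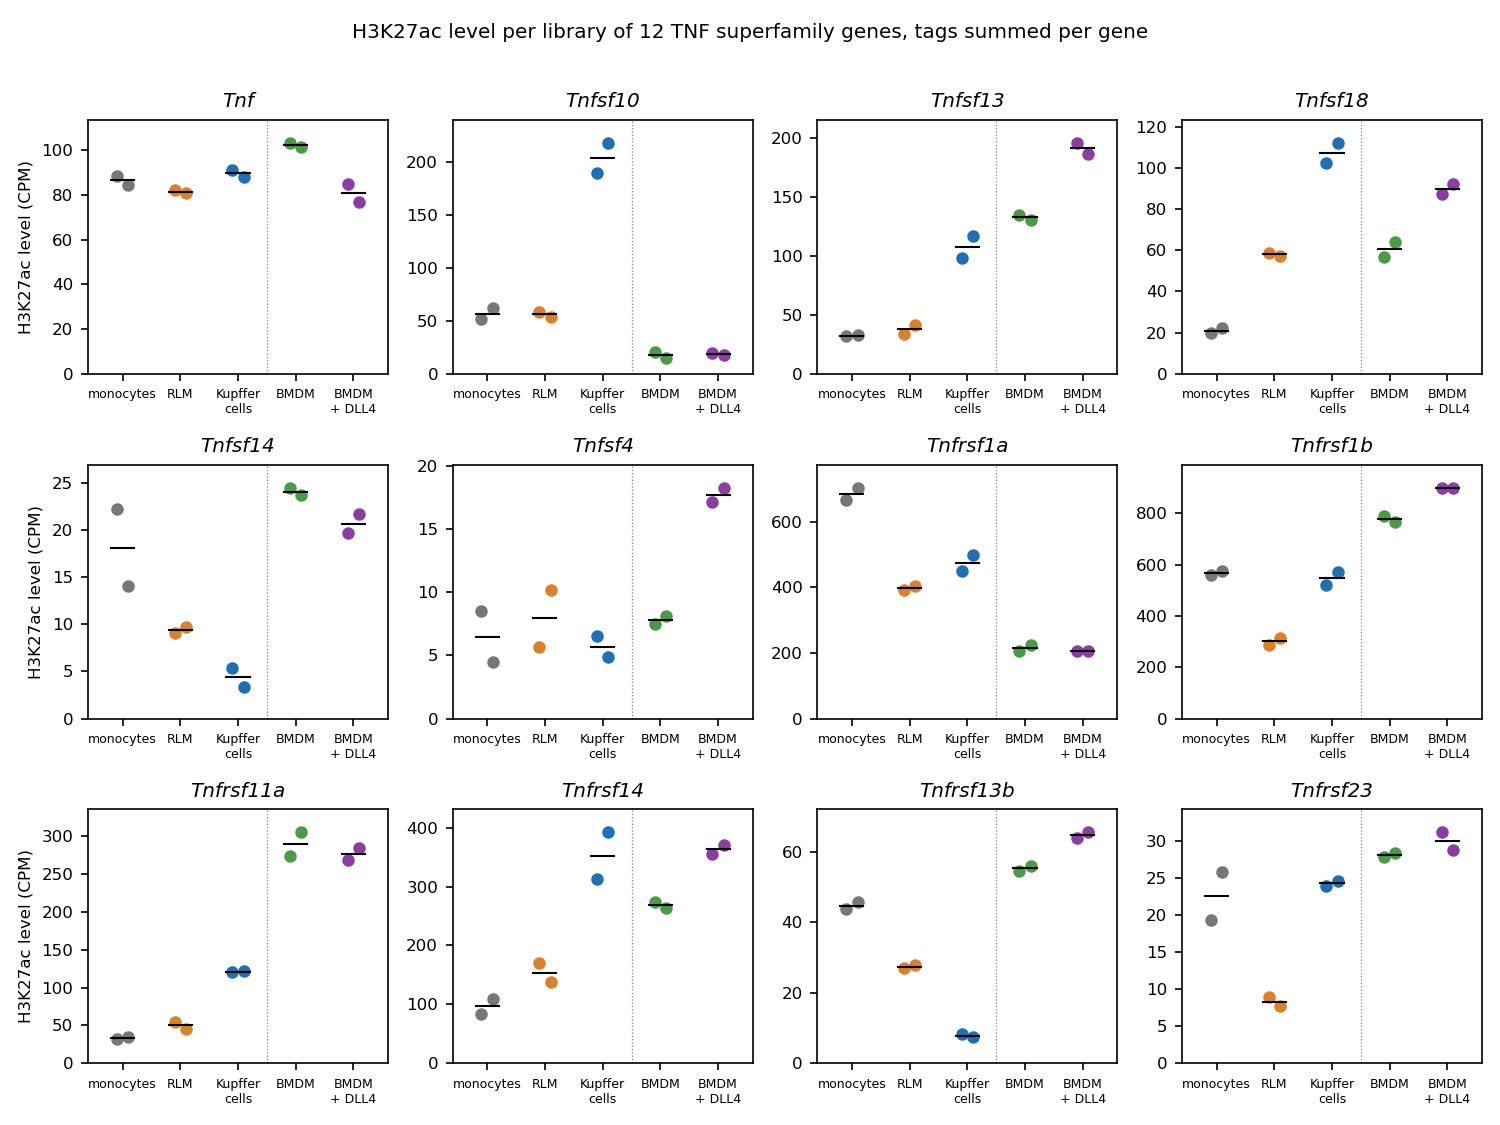
H3K27ac level in CPM for each library (points) and the group mean (line) for 12 superfamily genes. The dotted line separates the tables, which were scaled separately. Tnfsf10, Tnfsf13, Tnfsf18, Tnfrsf11a and Tnfrsf14 are higher in both KC libraries than in monocytes and RLM, Tnfrsf13b is lower, and Tnf lies between 76.6 and 103 CPM in all 10 libraries.

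Among the receptors, Tnfrsf11a encodes RANK, the receptor of RANKL. It had 31.9 and 34.9 CPM in monocytes, 55.2 and 45.9 in RLM and 120.4 and 121.5 in KC, 3 levels without overlap. RLM minus monocytes was 0.60 (adjusted p 0.00855, under 2-fold), and the gene rose by 1.26 from RLM to KC (SE 0.173, adjusted p 2.86e-07). At the promoter, chr1:105779642-105781642, the rise came at the first step, from 3.14 and 3.55 region CPM in monocytes to 9.85 and 9.75 in RLM (1.55, adjusted p 1.17e-04). At the intronic region chr1:105789336-105791336, 9.61 kb inside the gene, levels were 2.23 and 1.90 in monocytes, 6.04 and 5.79 in RLM and 23.7 and 21.8 in KC, and the step to KC was 1.94 (adjusted p 9.56e-08). Of the 13 regions, 5 lay in the neighbouring gene Relch. With regions within 3 kb of the start alone the RLM to KC difference was 0.68, and with total scaling 0.94; neither was called.

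Tnfrsf14 encodes HVEM. Its level was 84.0 and 109 CPM in monocytes, 170 and 137 in RLM and 312 and 392 in KC, again without overlap. It rose by 1.20 from RLM to KC (SE 0.164, adjusted p 3.12e-07), a call that ended with total scaling (0.87) and with distal regions alone (0.80). The promoter region chr4:154927173-154929173, which contains the window printed above, had 31.9 and 24.8 region CPM in RLM and 53.4 and 79.8 in KC (1.24, adjusted p 2.64e-06). The intergenic region chr4:154932011-154934011, 4.93 kb upstream, was already high in RLM at 10.2 and 8.53, against 0.744 and 1.32 in monocytes (3.17, adjusted p 4.41e-10), and it had 15.3 and 15.9 in KC. All 9 regions of Tnfrsf14 were higher in KC than in monocytes.

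Tnfrsf13b encodes TACI, a receptor of APRIL and BAFF best known on B cells. It had 43.7 and 45.7 CPM in monocytes, 27.03 and 27.9 in RLM and 8.35 and 7.40 in KC. The order was the reverse of that at Tnfsf13, the gene of its ligand. The gene fell by 1.81 from RLM to KC (SE 0.222, adjusted p 3.33e-08) and stood at -2.52 against monocytes (SE 0.219, adjusted p 1.10e-11). The intronic region chr11:61141458-61143458, 1.62 kb from the start, had 23.0 and 21.5 region CPM in monocytes, 10.6 in each RLM library and 1.55 and 1.94 in KC, and it fell at each step (-1.07 and -2.56, adjusted p 0.00193 and 1.62e-09). Tnfrsf13c (BAFF receptor) and Tnfrsf17 (BCMA), the other receptors of these ligands, were not called, with mean levels of 1.22 to 6.57 CPM.

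Tnfrsf18, which encodes GITR, the receptor of the Tnfsf18 product, had 6.65 and 5.75 CPM in monocytes, 4.10 and 6.15 in RLM and 16.1 and 19.0 in KC, and rose by 1.77 from RLM (SE 0.299, adjusted p 9.99e-06). Ligand and receptor gene of this pair were thus both higher in KC than in monocytes (Tnfrsf18 by 1.51). No region counted for Tnfrsf18 in the first table overlapped the gene itself: 2 lay in no protein-coding gene and 1 in the gene Ttll10. The region chr4:156031100-156033100 of Tnfrsf18, 5.78 kb from the start, had 2.76 and 3.35 region CPM in RLM and 8.35 and 12.2 in KC (1.75, adjusted p 4.07e-05). Tnfrsf19, which encodes the orphan receptor TROY, had 4.81 and 5.93 CPM in RLM and 15.3 and 11.2 in KC (1.28, SE 0.315, adjusted p 0.00112). This rested on 1 of its 5 regions, chr14:60987337-60989337 in an intron 49.6 kb from the start, with 0.394 and 0.813 region CPM in RLM and 6.68 and 6.80 in KC. With regions within 20 kb alone Tnfrsf19 stood at 0.17, and with total scaling at 0.96, neither called. Its KC minus monocyte value of 1.14 was 0.94, not called, without the first KC library.

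Tnfrsf22 and Tnfrsf23 encode decoy TRAIL receptors and are related neighbours on chromosome 7; whether tags of like sequence were split between them was not tested. Tnfrsf23 had 19.4 and 25.9 CPM in monocytes, 8.92 and 7.68 in RLM and 23.9 and 24.7 in KC: the RLM libraries were low, and monocytes and KC overlapped. The sum of dendritic cell markers was lowest in RLM as well (48.0 and 36.7 CPM), and its part in this was not tested. Of these markers, Flt3 and Siglech had their lowest mean in KC instead. Tnfrsf23 rose by 1.56 from RLM to KC (SE 0.246, adjusted p 3.32e-06). Both steps came from the promoter region chr7:143684868-143686868, with 7.69 and 11.3 region CPM in monocytes, 2.23 and 1.32 in RLM and 9.18 and 10.6 in KC. With distal regions alone the signs turned, to 0.38 for RLM minus monocytes and -1.36 for KC minus RLM. Tnfrsf22 showed the same order at 2.39 and 1.78, 1.13 and 0.439, and 3.11 and 3.70 CPM, and rose by 2.17 from RLM (SE 0.607, adjusted p 0.00362). Its 1 region is the promoter, chr7:143648686-143650686, and the call ended without the second RLM library (1.64, adjusted p 0.0599). Tnfrsf10b (TRAIL receptor, mean 1.23 to 1.74 CPM) and Tnfrsf8 (CD30, mean 3.23 to 4.49 CPM) were not called.

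Tnf itself was level across the first table, with 88.4 and 84.4 CPM in monocytes, 82.1 and 80.8 in RLM and 91.1 and 88.0 in KC. The differences were -0.09 for RLM minus monocytes and 0.14 for KC minus RLM (SE 0.162, adjusted p 0.491), and none of its 4 regions was called in any of the 3 comparisons. With total scaling KC minus RLM was -0.19. The Tnf promoter region chr17:35201064-35203064 had 18.5 and 17.2 region CPM in RLM and 19.7 and 20.1 in KC. Of the 4 regions, 1 also overlaps Lta, the neighbouring gene of lymphotoxin alpha.

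The TNF receptor genes behaved differently from the ligand. Tnfrsf1a had 666 and 704 CPM in monocytes, 391 and 405 in RLM and 448 and 500 in KC, and Tnfrsf1b 560 and 575, 289 and 314, and 523 and 570. Both were lowest in RLM in every library pair, as was the sum of dendritic cell markers given above, whose part in this was not tested. Within that sum Xcr1 and Zbtb46 had their lowest mean in RLM, while Flt3 and Siglech had theirs in KC. Per kilobase of regions, Tnfrsf1a had the highest level of the 27 genes in monocytes (26.4 CPM per kb), Tnfrsf1b 12.9 and Tnf 10.8; in KC, Tnfsf13 came first (26.9), followed by Tnfrsf14 (19.6), Tnfrsf1a (18.2) and Tnfrsf1b (12.4). None of the gene-level differences of Tnfrsf1a or Tnfrsf1b reached 2-fold with all libraries. The KC minus RLM difference was 0.86 at Tnfrsf1b (SE 0.144, adjusted p 8.62e-06) and 0.25 at Tnfrsf1a (SE 0.143, adjusted p 0.139; -0.07 with total scaling).

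Single regions showed what the sums of these receptor genes averaged. At Tnfrsf1b, 12 of 22 regions fell and 2 rose from monocytes to RLM, and 8 rose and 2 fell from RLM to KC. The intronic region chr4:145240167-145242167, 5.70 kb inside the gene, went from 79.2 and 80.8 region CPM in monocytes to 22.7 and 27.5 in RLM (-1.67, SE 0.21, adjusted p 1.22e-09) and stood at 50.8 and 60.8 in KC (1.15, adjusted p 4.29e-06). A region deeper in the gene, chr4:145221193-145223193, 24.7 kb from the start, had 2.07 and 0.908 in monocytes and 13.9 and 15.0 in KC (3.28, adjusted p 5.47e-12). The promoter region was not called at either step (0.54 and -0.10), and with regions within 3 kb alone the gene's RLM minus monocyte difference turned to 0.57. The 22 regions include 5 that lie in the neighbouring receptor gene Tnfrsf8, and overlapping regions share tags, so a count of regions is not a count of independent sites.

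At Tnfrsf1a, 5 of 13 regions fell from monocytes to RLM and 4 rose from RLM to KC. The upstream region chr6:125344033-125346033, 4.69 kb from the start and in the neighbouring gene Scnn1a, had 12.2 and 17.3 region CPM in monocytes, 1.18 and 2.74 in RLM and 2.62 and 3.40 in KC; it fell by 2.86 (SE 0.375, adjusted p 4.25e-09) at the first step only. The intronic region chr6:125351133-125353133 had 21.8 and 22.6 in RLM and 39.2 and 57.7 in KC (1.14, adjusted p 1.26e-05). Tnfrsf21, which encodes death receptor 6, missed 2-fold as a gene (0.96, SE 0.153, adjusted p 3.46e-06; 118 and 107 CPM in RLM, 209 and 229 in KC), but 8 of its 14 regions rose. Its leading region chr17:43037926-43039926, in an intron 22.4 kb from the start, went from 6.83 and 7.11 to 29.2 and 47.1 region CPM (2.46, SE 0.28, adjusted p 1.59e-11). Tnfrsf12a, the TWEAK receptor gene Fn14, had a promoter region that rose from monocytes to RLM (1.19) and fell from RLM to KC (-1.10), with gene-level values of 0.90 and -0.78; the gene had 28.9 and 31.9 CPM in monocytes, 65.0 and 49.1 in RLM and 35.8 and 31.0 in KC.

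Over all superfamily regions tested, 170 of 176, 19 rose and 28 fell from monocytes to RLM, against 8.57% higher and 9.14% lower (17.7% in either direction) among all 80982 regions. From RLM to KC 57 rose and 16 fell, against 22.3% and 13.9% (36.2% in either direction). From monocytes to KC 54 rose and 22 fell, against 24.9% and 17.7% (42.6% in either direction). As shares, 33.5% of the superfamily regions rose and 9.41% fell from RLM to KC, with the 11 regions of Tnfsf10 and the 8 each of Tnfrsf1b and Tnfrsf21 making up much of the higher ones.

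In BMDM, 1 of 28 superfamily genes tested rose with DLL4 and none fell by edgeR or DESeq2 (3 were lower at an unadjusted p under 0.05), against 2.60% higher and 1.28% lower among all 16421 genes. Another 10 genes passed the adjusted p without reaching 2-fold. The share of all genes that did so with DLL4 was not counted. The median was 0.16, against -0.01 for all genes, and total scaling moved the share of all calls that were higher from 66.9% to 54.4%. Markers of endothelium summed to 56.2 and 58.3 CPM without and 142 and 144 CPM with DLL4; Pecam1, which macrophages also express, was the only one called (2.10). Dendritic cell markers summed to 98.6 and 101 CPM without and 71.6 and 63.8 CPM with DLL4, with none of the 4 called (Xcr1 at -0.99).

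Tnfsf4, the gene of the T-cell co-stimulator OX40L, had 7.50 and 8.16 CPM without and 17.2 and 18.3 CPM with DLL4, a rise of 1.18 (SE 0.181, adjusted p 2.27e-07). Of its 10 tested regions 3 rose, the smallest adjusted p being that of chr1:161395554-161397554 in an intron 1116 bp from the start, from 1.99 and 2.39 to 4.74 and 4.99 region CPM (1.14, SE 0.304, adjusted p 0.00501). Tnfsf9, the gene of another co-stimulator, 4-1BBL, went the other way, from 20.6 and 19.7 to 11.2 and 9.51 CPM, a difference of -0.96 (SE 0.169, adjusted p 4.90e-06) just under 2-fold. Its promoter region chr17:57104296-57106296 fell from 18.0 and 16.6 to 9.06 and 7.99 region CPM (-1.02, SE 0.155, adjusted p 3.65e-06). With total scaling, or without the first DLL4 library, 2 superfamily genes were called, 1 higher and 1 lower.

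The genes that passed the adjusted p under 2-fold included several that were high in KC. Tnfsf13 had 135 and 130.5 CPM without and 196 and 186 with DLL4 (0.53, adjusted p 8.10e-10), Tnfsf18 56.8 and 63.9 without and 87.2 and 92.0 with it (0.57, adjusted p 5.41e-07), and Tnfrsf14 274 and 264 without and 355 and 371 with it (0.43, adjusted p 2.12e-10). In each case the groups did not overlap. That also held for superfamily genes that did not pass the adjusted p, such as Tnfrsf23 and Tnfsf13b. The share of all genes without overlap was not counted. Tnfsf10, at 20.3 and 15.2 CPM without and 19.8 and 17.3 with DLL4, overlapped. Tnf stood at 103 and 101 CPM without and 84.7 and 76.6 with DLL4 (-0.34, SE 0.083, adjusted p 9.43e-04). Tnfrsf1b was at 790 and 767, then 901 and 900 CPM (0.21), and Tnfrsf1a at 207 and 223, then 207 and 207 CPM (-0.06).

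The largest regional response to DLL4 among the 8 called superfamily regions was inside Tnfrsf11a, a gene whose sum did not move. The gene had 274 and 305 CPM without and 269 and 284.5 with DLL4, a difference of -0.07 (SE 0.055, adjusted p 0.425). The intronic region chr1:105794871-105796871, 15.1 kb from the start, had 2.53 and 2.97 region CPM without and 19.0 and 20.7 with DLL4 (2.84, SE 0.185, adjusted p 2.20e-14). A second intronic region, chr1:105800428-105802428, rose from 6.66 and 6.08 to 13.9 and 12.6 (1.06, adjusted p 2.03e-05). Regions 33.3 to 38.1 kb upstream, which lie in Relch, were lower without reaching 2-fold (-0.55 to -0.71), so the sum over 100 kb held differences of both signs; within 20 kb of the start it was 0.25. In the first table the region that overlaps the 15.1 kb site, chr1:105794841-105796841, was called higher at each step from monocytes to RLM and to KC (2.04 and 1.02). RBPJ peaks of untreated BMDM lay in the 15.1 kb region in both libraries, at 27.7 and 24.6 tags per 10 M. No other factor and cell group had peaks there in both libraries. The highest RBPJ peaks of BMDM at Tnfrsf11a, 134 and 127, lay in another of its regions. Of all regions not called with DLL4, 75.7% held RBPJ peaks in both BMDM libraries.

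**Figure D3:**
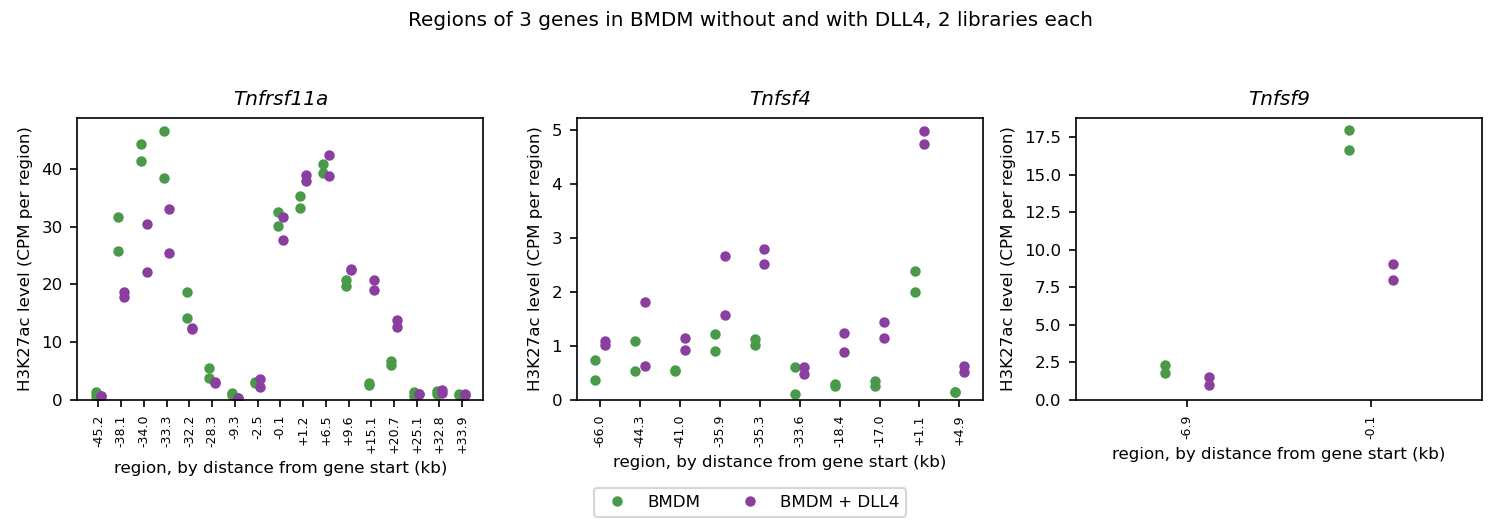
H3K27ac level per region (CPM over all tested regions) in 2 BMDM libraries without and 2 with DLL4, regions ordered by distance from the gene start. At Tnfrsf11a the regions at 15.1 and 20.7 kb are higher with DLL4 and those at 33.3 to 38.1 kb upstream lower; Tnfsf4 regions are mostly higher and the Tnfsf9 promoter lower.

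An intergenic region of Tnfrsf14, chr4:154914496-154916496, also rose with DLL4, from 1.70 and 1.63 to 5.44 and 6.37 region CPM (SE 0.303, adjusted p 1.53e-05), as did the promoter of Tnfsf15, chr4:63744249-63746249, from 1.31 and 0.760 to 2.65 and 2.28 (1.27, adjusted p 0.0384). In all, 7 of 180 tested superfamily regions rose and 1 fell, against 4.89% and 2.64% (7.53% in either direction) of all 82089 regions. Tnfrsf26, another gene of the decoy cluster, was measured only here, at a mean of 2.27 CPM without and 1.67 with DLL4, and was not called.

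Superfamily genes under other symbols were listed separately: 6 ligand and 8 receptor genes, 10 of which were tested in each table. From RLM to KC, 3 rose and 2 fell, against 14.6% higher and 12.8% lower among all genes. Cd40, the gene of a co-stimulatory receptor on antigen-presenting cells, had 16.6 and 30.4 CPM in monocytes, 28.7 and 30.7 in RLM and 125.5 and 122 in KC, and rose by 2.06 (SE 0.21, adjusted p 2.67e-09). Lta had 79.4 and 73.5 CPM in RLM and 182 and 229 in KC (1.43, SE 0.163, adjusted p 8.55e-09), although its neighbour Tnf did not change by the test. Ltb, the lymphotoxin beta gene of the same cluster, rose by 1.27 (SE 0.363, adjusted p 0.00433). Edar (-2.44) and Ngfr (-1.59) fell, at mean levels of 2.15 and 3.05 CPM in RLM. Without the second KC library only 3 of the 5 were called. Against monocytes Cd40, Ltb and Lta were higher in KC (2.39, 2.02 and 1.37), where 18.4% of all genes were higher and 14.4% lower. Between monocytes and RLM edgeR and DESeq2 called none of the 10 (unadjusted p under 0.05 for 2), and with DLL4 also none (unadjusted p under 0.05 for 5). Of all genes, 12.0% and 3.89% were called in these comparisons.

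The signalling list held 42 genes linked to receptor signalling, all tested. They run from TRAF adaptors to NF-kB inhibitors and include the gene of the shedding protease, Adam17. From monocytes to RLM 3 rose and, with 4 lower at an unadjusted p under 0.05, none fell: Nfkbia, the gene of the NF-kB inhibitor IkB-alpha, by 1.96 (95.2 and 95.0 CPM to 356 and 385), Ripk3, the gene of a necroptosis kinase, by 1.24, and Fadd, the gene of a death domain adaptor, by 1.04. Nfkbia stood at 509 and 621 CPM in KC, and its RLM to KC difference of 0.61 (adjusted p 8.88e-04) missed 2-fold. Ripk3 went from 32.0 and 22.7 CPM in RLM to 92.0 and 111 CPM in KC. From RLM to KC 4 rose, Ripk3 (1.90), Adam17, the gene of the protease that sheds TNF (1.36), Map3k14, the gene of the non-canonical NF-kB kinase NIK (1.08), and Tnip2 (1.02); 3 fell, Traf1 (-1.44), Tab3 (-1.29) and Traf4 (-1.10). Without the second KC library 4 genes were called in place of 7. From monocytes to KC 6 rose, led by Ripk3 (3.15), Nfkbia (2.57), Adam17 (1.71) and Map3k8 (1.44), and 4 fell: Traf1 (-1.65), Map3k7 (-1.62), Ikbkb (-1.31) and Tab3 (-1.22). With DLL4 the gene Nfkbie rose, from 27.9 and 32.1 to 75.3 and 74.6 CPM (1.32, SE 0.105, adjusted p 7.42e-17), and no other of the 42 was called. The shares called, 3 of 42, 7 of 42, 10 of 42 and 1 of 42, stand beside 12.0%, 27.4%, 32.8% and 3.89% of all genes.

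Factor peaks were read from the authors' list for each library, and a gene was counted where a peak overlapped its regions by at least 1 bp in both libraries of a group. LXR peaks were found at 18 of the 29 genes in KC and 20 in BMDM given GW3965, against 62.2% and 53.1% of all genes. SMAD4 peaks were found at 16 genes in KC nuclei and 16 in BMDM, against 55.9% and 49.0%. RBPJ peaks were found at 10 genes in KC nuclei and 25 in BMDM, against 27.8% and 85.2%. These shares lay near the background of all genes, apart from LXR in BMDM, where 69.0% of the superfamily had a peak. The superfamily genes had a median of 8 regions over both tables, against 6 for all genes, so they had more regions in which a peak could be counted. RBPJ lists were far shorter in KC (13394 and 11277 peaks from 48.7 and 52.8 M tags) than in BMDM (80480 and 78976 peaks from 16.6 and 17.5 M tags), so counts between these cells move with the length of the list. Per the file headers, the second LXR library of KC is named for a control diet but was called against an input named for a NASH diet; the first LXR library alone also had peaks at 18 genes and the second at 24. The same input was used for a SMAD4 library (the second) and an RBPJ library (the first) of KC nuclei.

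Peaks of all 3 factors in both cells were found at 9 genes: Tnf, Tnfrsf1a, Tnfrsf1b, Tnfrsf11a, Tnfrsf13b, Tnfrsf14, Tnfrsf21, Tnfsf8 and Tnfsf18. They were 31.0% of the superfamily; of all genes, 18.0% had such peaks. Tnfrsf25 and Tnfrsf26 had none in both libraries of any group. LXR peaks were shared by 15 genes, 83.3% of the KC genes and 75.0% of the BMDM genes, against 72.7% and 85.2% over all genes. Tnfsf10, Tnfsf13b and Tnfrsf19 had them in both libraries of KC and not of BMDM. Of these, Tnfsf10 and Tnfsf13b had LXR peaks in the first BMDM library (up to 20.9 and 49.0 tags per 10 M), and Tnfrsf19 in neither. SMAD4 peaks were shared by 11 genes, 68.8% of each set, against 71.0% and 81.0% over all genes. Tnfsf10, Tnfsf13, Tnfsf13b, Tnfrsf18 and Tnfrsf19 had them in both libraries of KC and not of BMDM. The first BMDM library alone held SMAD4 peaks at Tnfsf10 (12.6), Tnfsf13 (77.2, above the 13.7 and 44.9 in KC), Tnfsf13b (41.3) and Tnfrsf18 (26.9), and none was listed at Tnfrsf19 in BMDM. All 10 genes with RBPJ peaks in KC also had them in BMDM, 40.0% of the BMDM set, against 97.2% and 31.7% over all genes. No test was made of these sets, since 2 libraries against 2 cannot go below p = 0.33 in an exact two-sided test.

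**Figure D4:**
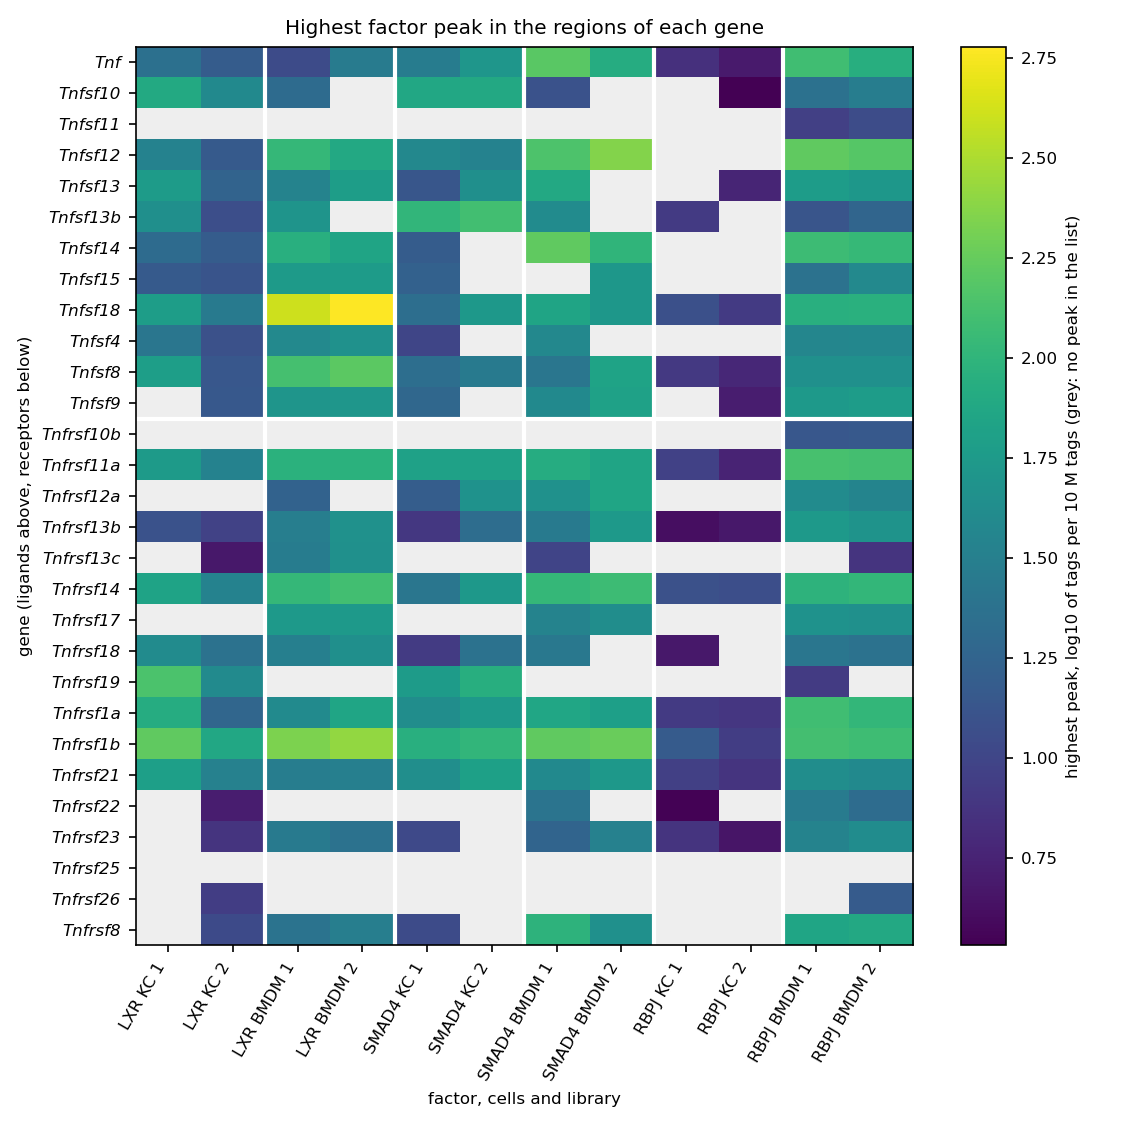
Highest peak of each factor in the regions of each superfamily gene, as log10 of the authors' tags per 10 M, for the 12 lists; grey marks genes without a peak in that list. Tnfsf18 has the highest LXR peaks in BMDM, Tnfsf10 and Tnfrsf19 have LXR and SMAD4 peaks in both KC libraries, and RBPJ peaks are lower and fewer in KC than in BMDM.

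Peak heights are the authors' tags per 10 M, and they serve to rank genes within a list. For LXR in KC, Tnfrsf1b led with 168 and 76.0, followed by Tnfrsf19 (138 and 40.1), Tnfsf10 (78.4 and 39.4) and Tnfrsf1a (84.4 and 18.6). The second library gave the lower height in each. For LXR in BMDM the highest peak was that of Tnfsf18, at 407 and 598, at chr1:161517324-161517474 in the first library. The KC peaks at Tnfsf18 overlapped it in position, at 60.9 and 28.4. Next came Tnfrsf1b (218 and 261), Tnfsf8 (131 and 162) and Tnfrsf14 (107 and 124).

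For SMAD4 in KC the leading genes were Tnfsf13b (102 and 125), Tnfrsf1b (89.7 and 101), Tnfsf10 (75.0 and 76.5) and Tnfrsf19 (58.6 and 87.6). The Tnfsf10 peak lay at chr3:27270468-27270616, inside the region 46.8 kb upstream described above, and the highest LXR peak of KC lay there too, at chr3:27270431-27270597. In BMDM the leading SMAD4 genes were Tnfsf12 (140 and 231), Tnfrsf1b (170.5 and 182), Tnfsf14 (170 and 99.8) and Tnf (159 and 84.0). For RBPJ in BMDM Tnfsf12 again led (170.5 and 153), then Tnfrsf11a (134 and 127), Tnfrsf1b (128 and 121) and Tnfrsf1a (123.5 and 105). In KC the leading RBPJ genes were Tnfrsf14 (12.3 and 11.7), Tnfrsf1b (15.0 and 8.71), Tnfsf18 (12.1 and 8.14) and Tnfrsf21 (9.04 and 7.38).

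The printed promoters differed in their peaks. In the Tnf window, SMAD4 peaks reached 159 and 84.0 tags per 10 M in BMDM and 30.1 and 51.5 in KC, RBPJ peaks 123.5 and 80.6 in BMDM, and LXR peaks 23.2 and 15.3 in KC. In the Tnfrsf1a window, RBPJ peaks stood at 43.4 and 43.5 in BMDM and 7.60 and 7.76 in KC, although the window holds no TGGGAA. The Tnfrsf14 window, with its 1 TGGGAA, had RBPJ peaks of 41.6 and 41.2 in BMDM and LXR peaks of 21.7 and 14.2 in KC. SMAD4 peaks lay in the Tnfrsf14 window, which holds CAGAC matches, only in the first library of BMDM (14.4) and of KC (12.1). In the Tnfrsf1a window, which holds no CAGAC, SMAD4 peaks stood at 23.3 and 51.0 in BMDM and 43.3 and 24.4 in KC. Over the 23 genes with a window, 16 had RBPJ peaks in it in both BMDM libraries and 1, Tnfrsf1a, in both KC libraries. The share over all promoter windows was not counted. RBPJ lists were far longer in BMDM than in KC, so the 16 and the 1 move with the length of the list.

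Of the 57 superfamily regions that rose from RLM to KC, 38 (66.7%) held an LXR peak in both KC libraries, close to the 65.5% of all regions that rose. Of the 16 that fell, 4 (25.0%) did, against 13.7% of all that fell. SMAD4 peaks of KC were in 35 of the 57 (61.4%, all regions 54.1%) and in 2 of the 16. Of the 7 regions that rose with DLL4, 6 (85.7%) held an RBPJ peak in both BMDM libraries, against 76.6% of all regions that rose. Such peaks were as common elsewhere, in 75.7% of all regions not called with DLL4 and 82.9% of all that fell. LXR and SMAD4 peaks of BMDM were each in 1 of these 7 (14.3%), against 47.5% and 30.5% of all regions that rose. RBPJ peaks of KC were in 8 of the 57 regions that rose from RLM to KC (14.0%, all regions 15.4%). These shares are descriptions, and those for DLL4 rest on 7 regions.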

How the data were processed

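The deposited H3K27ac values are raw tag counts per 2 kb region, which the authors counted over merged peak lists in 1 table for monocytes, RLM and KC and 1 for BMDM. Tools named in the submitters' processing notes are HOMER and Bowtie2, and the build is mm10; no version is given. For the factor peak lists the authors give, per the file headers, per peak a signal in tags per 10 M, a ratio of fold over input of at least 4, a false discovery rate of 0.001 and a Poisson p-value of 0.0001, per library.

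Tags were summed per gene by the authors' nearest-gene annotation, so a region may act on another gene or on none. Of the superfamily regions, 84 of 176 in the first table and 100 of 191 in the second overlap a neighbour and count some tags more than once. Genes and regions were tested with edgeR 4.0.16 (robust quasi-likelihood, TMM, filterByExpr) in R 4.3.3, with Benjamini-Hochberg adjustment over the whole table, and 1 fit per table. DESeq2 1.42.0 was an alternative. The tables were scaled separately and are not tested against each other. Peaks were joined with bedtools 2.31.1, and promoter windows came from RefSeq on GRCm38.p6. On simulated counts with the KC and RLM library sizes, 89% of genes changed 2-fold passed the adjusted p, 59% were also estimated at 2-fold or more and so called, and 100% of those changed 4-fold were called, over 16357 genes; for DLL4 these were 84%, 50% and 100% over 16339 genes. In these simulations the changed genes had a mean over 50 tags, the spread between libraries was fixed, and all other genes were unchanged. Genes with fewer tags, such as Tnfrsf22, were therefore not covered. Because a call needs an estimate of at least 2-fold, some true 2-fold changes are missed by construction. Replicate numbers did not pair libraries: correlations of same-numbered libraries lay between -0.03 and 0.06.

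The genes and lists were chosen with earlier results of these data known. Genes called in any comparison are named; values per library are given for the 6 largest changes among the genes called in a comparison and for Tnf, Tnfrsf1a, Tnfrsf1b and Tnfrsf11a, with the region of smallest adjusted p; for peaks the 4 highest genes per list pair are given. Tnfrsf21, Tnfrsf12a, Tnfsf9, Tnfsf8, Tnfsf15 and Tnfrsf19 values per library or region were added after their values were seen. One marker list is not reported here.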

Additional observations from a re-analysis of the deposited data

How the results depend on the processing

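All 23 called differences of superfamily genes kept direction and call with DESeq2, without the filter on low counts, with regions thinned so that none overlap, and with the replicate block. With the replicate number as a block, 2, 11 and 9 superfamily genes were called for RLM minus monocyte, KC minus RLM and KC minus monocyte, as without it, and no call changed. The labels share numbers only, so the block is not a pairing.

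Leaving out 1 library each, the number of superfamily genes called ranged from 2 to 5 (RLM minus monocyte, 5 without the second RLM library), 9 to 13 (KC minus RLM), 9 to 10 (KC minus monocyte) and 1 to 2 (DLL4); called regions ranged from 44 to 48, 50 to 73, 64 to 75 and 5 to 8 (5 without the second DLL4 library); pathway genes from 2 to 3, 4 to 8, 9 to 12 and 1 to 1; genes under other symbols from 0 to 1, 3 to 4, 3 to 4 and 0 to 2. With regions within 3 kb, superfamily calls were 4 for RLM minus monocyte and 7 for KC minus RLM, where fewer genes could be tested, pathway calls 5 for RLM minus monocyte, and other-symbol calls 3 for KC minus RLM. With distal regions, pathway calls were 7 (RLM minus monocyte), 17 (KC minus monocyte) and 2 (DLL4), and other-symbol calls 3 (KC minus RLM). With total tags, superfamily calls with DLL4 were 2 and other-symbol calls for KC minus monocyte 6. With non-overlapping regions 1 other-symbol gene was called with DLL4. RBPJ peaks in KC were at 2 genes where 8-fold over input was required and at 16 with a peak in at least 1 library.

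Directions turned as follows; the cause was not tested. For RLM minus monocyte, Tnfrsf1b was 0.57 within 3 kb and Tnfrsf23 0.38 with distal regions. For KC minus RLM, Tnfrsf23 was -1.36 with distal regions, and with total tags Tnf was -0.19 and Tnfrsf1a -0.073. For KC minus monocyte, Tnf was -0.24 with total tags and -0.28 with non-overlapping regions, Tnfrsf19 -0.25 within 20 kb, and Tnfrsf1b between -0.154 and 0.037 without 1 library each (0.037 without the first KC library), 0.017 within 20 kb, 0.71 within 3 kb and 0.18 with non-overlapping regions. With DLL4, Tnfrsf11a was between -0.154 and 0.014 without 1 library each (0.014 without the second BMDM library), 0.25 within 20 kb and 0.074 within 3 kb, and Tnfrsf1a between -0.122 and 0.002 (without the same library) and 0.057 within 3 kb. Depth limits Tnfrsf22, which rested on 8 and 4 tags in RLM.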
